A study of Mus musculus with 2 samples.

Results

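The 7 genes described here encode enzymes of serine synthesis, of the serine-driven one-carbon pathway and of asparagine synthesis: Phgdh, Psat1, Psph, Shmt1, Shmt2, Mthfd2 and Asns. They were taken by symbol from the 28692 genes listed in each of 2 single-cell libraries, and each symbol stood on 1 row. They had been picked with their levels in these same cells known, so their levels and ratios are a description and no test was made on them. Both libraries held cells washed from the peritoneal cavity of germ-free C57BL/6 mice, and neither group carried a microbiota. The WT library pooled equal cell numbers of 4 male mice aged 10 weeks. The Xbp1dIEC library pooled 4 male mice of that age whose intestinal epithelium lacks Xbp1, the gene of a transcription factor that answers endoplasmic reticulum stress; the Cre driver is not given in the sources used here. The deletion is not in the cells measured, so Xbp1 counts in them do not check the labels. With 1 library per genotype there is no replicate: intervals cover counting error only, no p-value is given, and genotype, pool and library cannot be told apart.

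Serine is made from the glycolytic intermediate 3-phosphoglycerate by PHGDH, which oxidises it, PSAT1, which adds the amino group, and PSPH, which removes the phosphate. SHMT1 in the cytosol and SHMT2 in mitochondria then split serine into glycine and a one-carbon unit carried on folate, and the mitochondrial enzyme MTHFD2 oxidises that unit on the way to formate, which feeds purine and thymidylate synthesis in dividing cells. ASNS makes asparagine from aspartate and glutamine. Most of these genes are known as targets of the stress-induced transcription factor ATF4, and dividing lymphocytes are known to rely on the pathway.

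All 7 genes lie on the minus strand of GRCm38 (mm10), by the GENCODE M21 annotation. Phgdh (ENSMUSG00000053398) spans chr3:98313170-98339990, Psat1 (ENSMUSG00000024640) chr19:15904678-15947337 and Psph (ENSMUSG00000029446) chr5:129765558-129787449. Shmt1 (ENSMUSG00000020534) spans chr11:60788104-60811718 and Shmt2 (ENSMUSG00000025403) chr10:127517123-127522444. Mthfd2 (ENSMUSG00000005667) spans chr6:83305691-83325908, and Asns (ENSMUSG00000029752) chr6:7675169-7693254. Psph, Shmt1 and Shmt2 each overlap a gene on the other strand (Cct6a, Smcr8 and Ndufa4l2), and Psat1 overlaps the pseudogene Gm3329. Mthfd2 overlaps the unproven transcript Gm43890 on its own strand, and Phgdh has a pseudogene named Phgdh-ps1. Of the overlapping genes, only Gm43890 lies on the strand of its member. How reads shared with it or with a pseudogene were assigned is not given in the sources used here.

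Phgdh set lymphocytes apart from macrophages, and Psat1 and Mthfd2 set cycling macrophages apart from resting ones, so the promoters of these 3 genes are shown. The sequences are those of RefSeq on GRCm38.p6, from 250 bases before the annotated start to 50 after it, read 5′ to 3′ on the minus strand. The RefSeq starts used for Psat1 and Mthfd2 lie inside the GENCODE spans given above, which reach further upstream. The sequences cover chr3:98339920-98340219 for Phgdh, chr19:15925010-15925309 for Psat1 and chr6:83317555-83317854 for Mthfd2. Capitals mark the CCAAT box, searched as CCAAT on both strands, so that it is read as ATTGG where it lies on the other strand.
Phgdh: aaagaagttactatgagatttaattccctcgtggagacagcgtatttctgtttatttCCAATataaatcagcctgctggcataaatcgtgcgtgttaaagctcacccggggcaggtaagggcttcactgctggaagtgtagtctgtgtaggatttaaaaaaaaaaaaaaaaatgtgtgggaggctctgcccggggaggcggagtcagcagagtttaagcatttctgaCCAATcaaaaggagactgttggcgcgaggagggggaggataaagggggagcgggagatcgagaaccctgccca
Psat1: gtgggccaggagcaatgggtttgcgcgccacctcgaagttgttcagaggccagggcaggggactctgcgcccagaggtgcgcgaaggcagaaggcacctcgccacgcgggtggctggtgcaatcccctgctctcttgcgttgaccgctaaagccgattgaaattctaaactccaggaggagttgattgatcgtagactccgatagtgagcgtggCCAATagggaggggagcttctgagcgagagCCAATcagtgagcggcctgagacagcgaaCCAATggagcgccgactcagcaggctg
Mthfd2: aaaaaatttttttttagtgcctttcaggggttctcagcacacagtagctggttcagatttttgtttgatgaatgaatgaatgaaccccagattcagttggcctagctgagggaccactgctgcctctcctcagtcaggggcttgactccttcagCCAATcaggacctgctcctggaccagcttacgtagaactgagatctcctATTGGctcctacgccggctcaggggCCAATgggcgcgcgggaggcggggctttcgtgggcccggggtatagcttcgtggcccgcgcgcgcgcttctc
Psat1 held 3 CCAAT boxes, the first bases of which lie at positions -36, -6 and 24, where 1 is the start and -1 the base before it. Mthfd2 also held 3, at -96, -47 and -22, and Phgdh held 2, at -193 and -23. Psph held 2, Shmt1 held 1, and Shmt2, Asns and the promoter at a second listed start of Psat1 held none. Of all 32851 promoters of this length, 37.4% held at least 1, 11.7% at least 2 and 3.37% at least 3. The ATF4 element, searched on both strands as TGATGNAA, was found in Asns alone among the 7, with its first base at -23, and in 3.97% of all promoters. The E2F motif TTCCCGC was also found in Asns alone, at -14, and in 4.6% of all promoters, while the E-box CACGTG was in none of the 7 and in 7.15% of all. A match is a description of the letters and no evidence that a factor binds.

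The libraries held 6204 (WT) and 6246 (Xbp1dIEC) barcodes with 56229330 and 49703442 UMIs (counted RNA molecules), of which 58 barcodes were in both. After removal of cells with 10% or more mitochondrial counts and of called doublets, 6058 and 6113 cells remained, with a median depth before this of 8323 and 7279 UMIs. Cells were gated by UMIs of marker genes, with 3 or more of 1 lineage's list and under 3 of the others. B-1 cells also had 2 or more UMIs of B-1 markers and none of Fcer2a (CD23), and B-2 cells 1 or more of Fcer2a with under 2 of B-1 markers. This gave 432 WT and 814 Xbp1dIEC B-1 cells, 366 and 280 B-2 cells, 294 and 258 T cells, and 3244 and 3380 macrophages. B cells of all kinds, including those that met neither B gate, numbered 1388 and 1724. Barcodes over the threshold of more than 1 lineage, 1053 in WT (17.4%) and 639 in Xbp1dIEC (10.5%), were left out. The 6 macrophage markers summed to 10400 CPM (counts of a gene scaled to a common total of UMIs) in WT macrophages and to between 131.2 and 159.7 CPM in the WT B-1, B-2 and T gates. The 6 B lineage markers summed to 6501 and 8035 CPM in WT B-1 and B-2 cells and 55.4 CPM in macrophages. Markers of NK cells summed to 725.0 CPM in the WT T gate and 896.9 CPM in the Xbp1dIEC one, so that gate is not read as T cells alone. All levels below are CPM of the summed cells of a gate, with exact Poisson 95% intervals.

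Phgdh, the first enzyme of the pathway, was a lymphocyte transcript in this cavity. In B-1 cells it stood at 126.8 CPM in WT (115 to 139) and 90.8 in Xbp1dIEC (84.2 to 97.7). In B-2 cells it was 79.9 (67.2 to 94.2) and 72.4 CPM (58.5 to 88.6), and in T cells 58.8 (45.9 to 74.1) and 58.9 (45.5 to 75.1). Macrophages gave 1.42 CPM (44 UMIs over 3244 cells) and 0.867 CPM (22 UMIs over 3380 cells). The order was B-1, B-2, T and macrophage in both libraries. The counting intervals of B-2 and T cells overlapped in each, those of B-1 and B-2 cells overlapped in Xbp1dIEC but not in WT, and macrophages lay far below all 3 lymphocyte gates. Across the 1205 and 1497 resting B cells against resting macrophages (resting is defined below), the log2 ratio with 1 CPM added was 5.73 in WT (5.40 to 6.03) and 5.63 in Xbp1dIEC (5.29 to 5.93).

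The few Phgdh UMIs in macrophages stood at about the ratio at which B cell genes appeared there. The macrophage level was 1.27% of the B cell level in WT and 0.981% in Xbp1dIEC. The immunoglobulin genes Igkc, Ighm and Ighd and the B cell surface gene Ly6d, a set chosen after the data were seen, stood in macrophages at 0.952% to 1.19% of their B cell level in WT and 0.932% to 1.37% in Xbp1dIEC. Phgdh lay just above the span of these genes in WT and within it in Xbp1dIEC, so its level over all macrophages is not read as expression. Whether free RNA is the source was not tested.

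Per cell, the Phgdh counts were low even where the gene was highest. In WT, 192 of 432 B-1 cells held no Phgdh UMI, 50 held 3 or more, and the highest held 7. In Xbp1dIEC, 409 of 814 held none, 74 held 3 or more, and the highest held 8. Any Phgdh UMI was found in 40 of 3244 WT macrophages and 22 of 3380 Xbp1dIEC ones. With each cell thinned to 2000 UMIs so that depth was equal, 21.5% of WT B-1 cells (exact binomial interval 17.7 to 25.7) and 18.7% of Xbp1dIEC B-1 cells (16.1 to 21.5) kept a Phgdh UMI. The thinned share was 12.3% and 11.4% in B-2 cells, 10.9% and 10.5% in T cells, and 0.216% and 0.118% in macrophages. Without thinning the shares were 55.6% and 49.8% in B-1 cells, at median depths of 7265 and 8302 UMIs, and 1.23% and 0.651% in macrophages, at 9382 and 7539 UMIs. The order of the gates was the same by level and by either share.

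**Figure D1:**
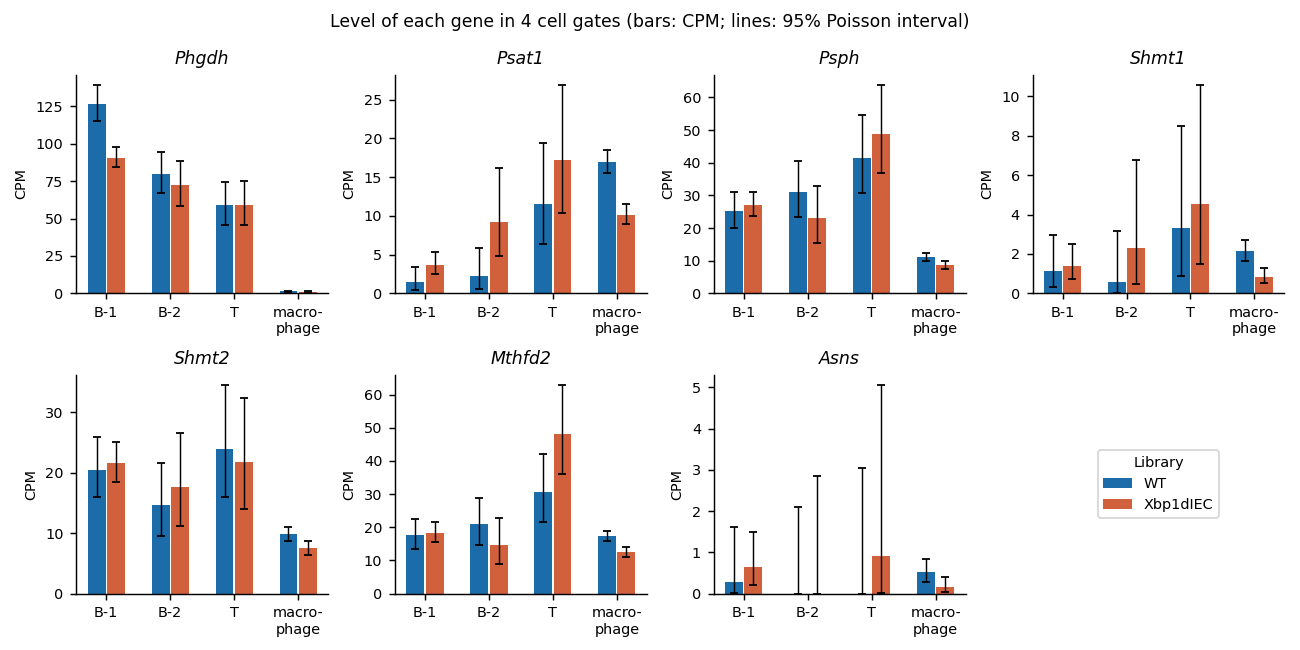
Levels of the 7 genes in CPM (bars from 0, 1 panel per gene) in B-1, B-2, T and macrophage gates of the WT and Xbp1dIEC libraries, with exact Poisson 95% intervals as error bars. Phgdh reached 126.8 CPM in WT B-1 cells and 1.42 CPM in WT macrophages, while Psat1 was 1.45 CPM in WT B-1 cells and 16.99 CPM in WT macrophages.

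Psat1, the second enzyme, had a different distribution. WT macrophages gave 16.99 CPM (15.6 to 18.5; 527 UMIs) and Xbp1dIEC macrophages 10.2 CPM (8.97 to 11.5; 258 UMIs). T cells gave 11.6 (6.33 to 19.4; 14 UMIs) and 17.2 CPM (10.4 to 26.9; 19 UMIs). B-1 cells gave 1.45 (0.469 to 3.37; 5 UMIs) and 3.72 CPM (2.49 to 5.34; 29 UMIs), and B-2 cells 2.27 (4 UMIs) and 9.24 CPM (12 UMIs). Psat1 was thus low in the B-1 cells where Phgdh was highest, and in WT 5 of 432 B-1 cells held it (1.16% unthinned). The macrophage and T intervals overlapped in both libraries. For resting B cells against resting macrophages the log2 ratio was -1.46 in WT (-1.94 to -0.98) and -0.67 in Xbp1dIEC (-1.08 to -0.26). The Psat1 level over all B cells was 21.6% and 44.4% of the macrophage level, whereas the macrophage genes Lyz2, Fn1, Prg4 and Alox15, also chosen after the data were seen, stood in B cells at 1.67% to 2.69% of theirs in WT and 1.19% to 1.72% in Xbp1dIEC. The Psat1 share thus lay above those of these 4 genes in both libraries, on 31 and 59 UMIs in B cells.

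Psph, which completes serine synthesis, was higher in lymphocytes than in macrophages in both libraries. It stood at 25.1 and 27.2 CPM in B-1 cells, 31.2 and 23.1 in B-2 cells, 41.4 and 48.9 in T cells, and 11.1 and 8.59 in macrophages (WT and Xbp1dIEC). T cells were highest in each library, with intervals of 30.7 to 54.5 and 36.8 to 63.8 CPM; in WT this overlapped the B-2 interval of 23.5 to 40.6 and just met that of B-1 cells, which ended at 31.0. For resting T cells against resting macrophages the log2 ratio was 1.74 and 2.47, and for resting B cells 1.32 and 1.46.

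The serine hydroxymethyltransferases differed in how far they could be measured. Shmt2, the mitochondrial form, stood at 20.5 and 21.5 CPM in B-1 cells, 14.7 and 17.7 in B-2 cells, 24.0 and 21.7 in T cells, and 9.80 and 7.49 in macrophages. The 3 lymphocyte gates overlapped in their intervals, and resting B cells were above resting macrophages by a log2 ratio of 1.24 (0.94 to 1.54) in WT and 1.35 (1.06 to 1.63) in Xbp1dIEC. Shmt1, the cytosolic form, gave between 1 and 11 UMIs in each lymphocyte gate and 66 and 21 UMIs in macrophages, at levels of 0.567 to 4.53 CPM over all gates. No order of the gates can be read for Shmt1 at this depth.

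Mthfd2 was highest in T cells, at 30.6 CPM in WT (21.6 to 42.2) and 48.0 in Xbp1dIEC (36.0 to 62.8). B-1 cells had 17.6 and 18.3 CPM, B-2 cells 21.0 and 14.6, and macrophages 17.4 and 12.5. The WT T interval overlapped those of WT B-1 and B-2 cells, and the Xbp1dIEC one overlapped none of the other gates. Asns was close to absent: it gave 16 and 4 UMIs over all macrophages (0.516 and 0.158 CPM), 1 and 5 in B-1 cells, and 0 and 1 in T cells. In B-2 cells it had no UMI in either library, which allows up to 1.70 CPM in WT and 2.31 CPM in Xbp1dIEC (3 counts of the total).

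Counted together for resting B cells against resting macrophages, 4 of the 5 genes with 50 or more UMIs were higher by over 1.5-fold and Psat1 was lower, in each library. Among all genes so compared, 24.4% (WT) and 24.7% (Xbp1dIEC) were higher and 28.6% and 26.3% lower. For resting T cells against resting macrophages 4 of 5 members were higher in WT and 5 of 5 in Xbp1dIEC, against 23.3% and 25.8% of all genes higher and 34.5% and 31.6% lower. Since the members had been chosen on these levels, nothing is read from the counts. Between B cells of all states and T cells, Phgdh was higher in B cells by a log2 ratio of 0.91 in WT (0.57 to 1.28), past 1.5-fold. In Xbp1dIEC the ratio was 0.58 (0.22 to 0.95), within 1.5-fold. Upward, 19.4% and 20.3% of all genes were past that size. Mthfd2 was lower in B cells, at -0.69 (-1.20 to -0.15) and -1.36 (-1.78 to -0.91), where 12.8% and 15.3% of genes were past 1.5-fold downward. Psat1 at -1.72 and Psph at -0.88 were also past it in Xbp1dIEC. In all, 1 of 4 members was higher and 1 lower in WT, and 0 of 5 higher and 3 lower in Xbp1dIEC. Among the T gate's cells, those with a Cd8 UMI (90 and 68) had 69.8 and 67.1 CPM of Phgdh, and those without (204 and 190) 53.0 and 55.2.

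Within B cells, Phgdh was higher in B-1 than in B-2 cells by a log2 ratio of 0.66 in WT (0.39 to 0.94), past 1.5-fold, and 0.32 in Xbp1dIEC (0.02 to 0.64), within it. It was the only 1 of 4 members compared to pass that size in WT, where 5.77% of all genes were higher and 12.4% lower, and none of 4 passed it in Xbp1dIEC, where 9.82% were higher. With cells thinned before summing, so that each counts alike, the Xbp1dIEC ratio was 0.70, past 1.5-fold. The B-1 gate itself holds cells with different Phgdh levels. Those with an Ahnak2 UMI and none of Fbxw13 or Prkar2b (111 WT and 110 Xbp1dIEC cells) had 151.5 and 131.6 CPM of Phgdh. Those with Fbxw13 or Prkar2b and no Ahnak2 (70 and 322 cells) had 93.1 and 75.2 CPM. The log2 ratio was 0.70 in WT (0.24 to 1.17) and 0.80 in Xbp1dIEC (0.49 to 1.10). The splitting genes were taken from earlier results on these cells, in which Phgdh was among the genes that marked the Ahnak2 state. This difference was therefore fixed by the choice of split, and nothing is read from it or from the 4.49% and 3.34% of genes that were as much higher. Ass1, the arginine pathway enzyme argininosuccinate synthase, was higher in B-1 than B-2 cells as well, at 128.3 against 35.7 CPM in WT, a log2 ratio of 1.82 (1.44 to 2.21).

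Cycling was read from 25 cell cycle genes after thinning each cell to 2000 UMIs: 3 or more of their UMIs made a cell cycling, and 0 made it resting. Among macrophages 232 of 3244 WT cells (7.15%) and 118 of 3380 Xbp1dIEC cells (3.49%) were cycling, and 2572 and 2963 were resting. Cycling cells were deeper, at medians of 14111 and 10855 UMIs against 9115 and 7495, so levels are given as CPM. The 6 macrophage markers summed to 8026 CPM in WT cycling cells and 10700 in resting ones, all 6 with UMIs, and to 6480 and 9341 CPM in Xbp1dIEC. B lineage markers summed to 46.1 against 56.9 CPM in WT and 33.4 against 48.1 in Xbp1dIEC, with Pax5 at 0 in the cycling cells of both, and T markers stayed under 7.5 CPM throughout. The part of depth and of the marker differences in the results that follow was not tested.

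Psat1 and Mthfd2 were several-fold higher in cycling than in resting macrophages in each library. Mthfd2 stood at 70.6 CPM in WT cycling cells (219 UMIs) and 10.3 in resting ones (242 UMIs), and at 61.2 (75 UMIs) and 9.07 CPM (198 UMIs) in Xbp1dIEC. The log2 ratio was 2.67 in WT (2.41 to 2.92) and 2.63 in Xbp1dIEC (2.24 to 3.0). Psat1 stood at 59.0 CPM (183 UMIs) against 11.4 (269 UMIs) in WT and 50.6 (62 UMIs) against 6.92 (151 UMIs) in Xbp1dIEC. Its log2 ratio was 2.27 (2.00 to 2.53) and 2.70 (2.27 to 3.12). In fold terms, with 1 CPM added, this was 6.34 and 6.17 for Mthfd2 and 4.82 and 6.51 for Psat1. In thinned cells, 9.05% of WT cycling macrophages held Psat1 (21 of 232) against 2.18% of resting ones, and 7.63% (9 of 118) against 1.45% in Xbp1dIEC. For Mthfd2 the thinned shares were 16.4% (38 of 232) against 2.10%, and 10.2% (12 of 118) against 1.96%. Unthinned, 46.6% and 37.3% of cycling macrophages held Psat1 and 52.6% and 42.4% held Mthfd2. Both genes were therefore higher in cycling cells by level and by share at equal depth. They are also the genes with 3 CCAAT boxes in the promoters shown above, and no cause is drawn from that.

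The hydroxymethyltransferases were higher in cycling macrophages as well. Shmt2 stood at 22.9 CPM against 7.40 in WT and 13.1 against 6.64 in Xbp1dIEC, a log2 ratio of 1.51 (1.12 to 1.89) and 0.88 (0.11 to 1.58). Shmt1 rested on 16 and 29 UMIs in WT and on 5 and 12 in Xbp1dIEC, with log2 ratios of 1.46 (0.74 to 2.12) and 1.71 (0.52 to 2.71); at levels this low the 1 CPM added lowers the ratio, and these intervals overlap those of Psat1 in both libraries. Psph, the last step of serine synthesis, was within 1.5-fold in both: it had 13.5 CPM against 10.8 in WT, a log2 ratio of 0.30 (-0.17 to 0.74), and 8.16 against 8.66 in Xbp1dIEC, a ratio of -0.08 (-0.998 to 0.755). Phgdh had 3.87 CPM (12 UMIs) in cycling against 1.15 (27 UMIs) in resting WT cells, a log2 ratio of 1.18 (0.40 to 1.90). In Xbp1dIEC it had 3.26 (4 UMIs) against 0.733 CPM (16 UMIs), a ratio of 1.30 (0.05 to 2.42). With cells thinned before summing, the Xbp1dIEC ratio was -0.74 (-0.744 to 3.144), on 0 UMIs in cycling cells and 4 in resting ones. By full counts Phgdh was thus higher in cycling macrophages on few UMIs, and still far below any lymphocyte gate. Under 50 UMIs it was not counted as called. B lineage markers were lower in the cycling cells, but the other B cell lists were higher. B-1 markers summed to 16.8 against 12.2 CPM in WT and 20.4 against 12.1 in Xbp1dIEC. For B-2 markers the sums were 77.05 against 48.6 and 66.9 against 36.3 CPM. The part of B cell RNA in the Phgdh difference was not tested. Asns gave 5 UMIs in the cycling WT macrophages and none in the Xbp1dIEC ones.

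Summed over the 7 genes, cycling macrophages had 176.7 CPM against 42.7 in WT and 140.3 against 32.7 in Xbp1dIEC, a log2 ratio of 2.02 (1.87 to 2.17) and 2.07 (1.82 to 2.31). Of the 4 members with 50 or more UMIs, 3 were higher by over 1.5-fold in each library, and 14.6% (WT) and 18.7% (Xbp1dIEC) of all genes were. The members' median log2 ratio was 1.89 and 1.75, beside 0.05 and 0.09 over the 9879 and 9564 genes compared. The members had been chosen with this contrast known, so nothing is read from the counts.

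**Figure D2:**
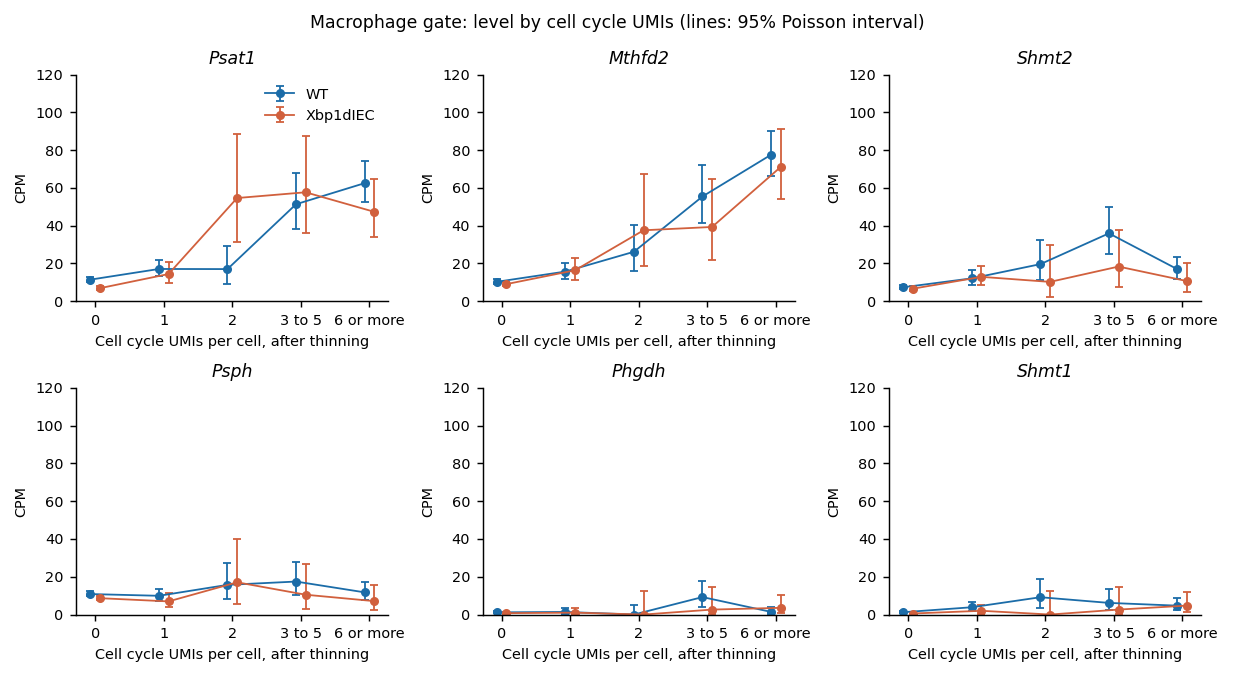
Levels of 6 genes (Asns is left out) in CPM, with exact Poisson 95% intervals, for macrophages binned by their UMIs of the 25 cell cycle genes in thinned cells, in the WT and Xbp1dIEC libraries. Mthfd2 was 10.3 CPM in WT cells with 0 such UMIs and 77.5 CPM in those with 6 or more, while Psph showed no such difference.

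Levels of both genes were higher in the bins with more cell cycle UMIs. In WT macrophages with 0, 1, 2, 3 to 5 and 6 or more of them, Mthfd2 stood at 10.3, 15.7, 26.2, 55.5 and 77.5 CPM, and Psat1 at 11.4, 17.1, 17.02, 51.3 and 62.5 CPM. In Xbp1dIEC the same bins gave 9.07, 16.4, 37.6, 39.3 and 71.0 CPM of Mthfd2, and 6.92, 14.4, 54.6, 57.7 and 47.4 CPM of Psat1. Mthfd2 was thus highest in the last bin of each library, and Psat1 levelled off over the bins of 2 or more in Xbp1dIEC, where the intervals overlapped. The bins of 2 and of 3 to 5 held 71 and 73 WT cells and 35 and 35 Xbp1dIEC cells.

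Cells were also split by DNA replication genes (13) and mitosis genes (22), sets chosen after the data were seen. WT macrophages with 3 or more thinned UMIs of the replication set and at most 1 of the mitosis set (83 cells) had 27.8 CPM of Mthfd2. Those with the reverse (112 cells) had 57.1, those with 3 or more of both (63 cells) 97.3, and those with no UMI of either 9.07. In Xbp1dIEC these were 32.2 (42 cells), 49.8 (66 cells), 85.2 (35 cells) and 9.01 CPM. Psat1 gave 36.1, 52.2 and 64.1 CPM in the first 3 of these WT groups and 42.2, 37.8 and 59.6 in the Xbp1dIEC ones. Mthfd2 kept the same order in both libraries, and Psat1 was in each of these groups above its level in cells of neither set, 10.98 CPM in WT and 6.54 in Xbp1dIEC.

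Macrophages with a UMI of Gata6 or Timd4, genes of the resident large peritoneal macrophages, were compared with those without. Among cycling WT cells, the 150 with either gene had 47.8 CPM of Psat1 and the 82 without had 84.5; in Xbp1dIEC the 74 with and 44 without had 50.5 and 50.7. Mthfd2 was 64.5 and 84.5 CPM in WT and 56.7 and 69.99 in Xbp1dIEC. Among resting cells, Mthfd2 was higher in those without, at 15.6 against 8.67 CPM in WT, a log2 ratio of 0.78 (0.41 to 1.14) where 3.34% of genes were past 1.5-fold, and 11.9 against 7.89 CPM in Xbp1dIEC, a ratio of 0.54 (2.67% past it). Resting Psat1 was 12.5 against 11.1 CPM in WT and 6.59 against 7.05 in Xbp1dIEC, within 1.5-fold in both. High Psat1 and Mthfd2 in cycling cells were therefore seen with and without such a UMI. Cycling cells without it were shallower, at medians of 11792 against 15402 UMIs in WT and 8803 against 11954 in Xbp1dIEC. A missing UMI thus does not show another kind of macrophage.

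Cycling B cells were few, 10 in WT and 22 in Xbp1dIEC, with 1 to 17 in the B-1 and B-2 gates. Here Phgdh was the abundant member: it stood at 212.3 CPM (20 UMIs) in cycling and 113.1 in resting WT B cells, and at 211.1 (60 UMIs) and 85.0 CPM in Xbp1dIEC. The log2 ratio was 0.90 (0.19 to 1.54) and 1.30 (0.90 to 1.68). Psph was higher by 1.54 and 1.02, and Mthfd2 by 1.68 and 1.19 on the log2 scale, on 6 to 15 UMIs in the cycling cells. With cells thinned before summing, the WT ratios turned to -0.09 for Phgdh (-3.045 to 1.765) and -4.30 for Mthfd2 (-4.298 to 3.29). These rest on 2 and 0 UMIs in the cycling cells, and both intervals hold the ratio of the full counts. Neither direction is therefore read in WT. The makeup of the cells moved with the state: B-1 markers summed to 785.7 CPM in cycling and 371.0 in resting WT B cells and B-2 markers to 414.1 and 712.8, and in Xbp1dIEC to 619.2 and 556.6, and 168.9 and 461.8. In Xbp1dIEC 17 of the 22 cycling B cells were in the B-1 gate and in WT 4 of 10, and the part of this makeup was not tested. Psat1 gave 1 UMI in the WT cycling B cells and 7 in the Xbp1dIEC ones, where it was 24.6 CPM against 3.98 in resting cells. Of the members compared, 3 of 4 in WT and 5 of 5 in Xbp1dIEC were higher by over 1.5-fold, beside 23.5% and 18.5% of all genes higher and 29.1% and 24.4% lower. The WT count includes Phgdh and Mthfd2. The Xbp1dIEC count includes Shmt2, at 1.501-fold on 8 UMIs in the cycling cells, a log2 ratio of 0.59 (-0.58 to 1.56). The members had been chosen with these levels known, so nothing is read from the counts. Cycling T cells numbered 1 and 2 and were not compared.

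**Figure D3:**
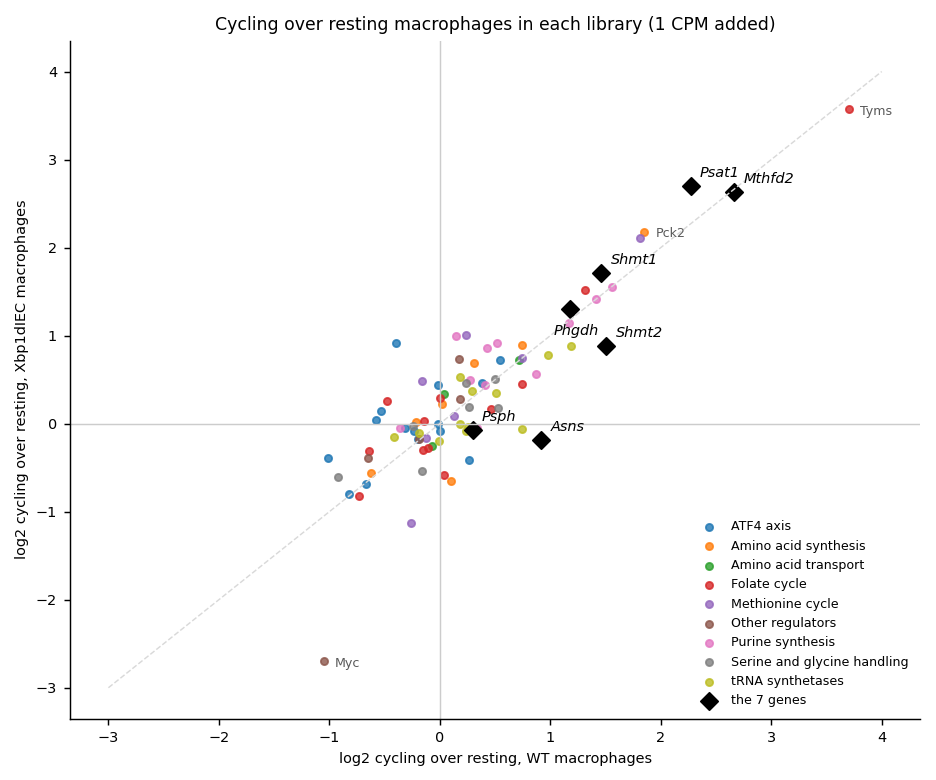
Log2 ratio (1 CPM added) of cycling over resting macrophages in the WT library (horizontal) and the Xbp1dIEC library (vertical) for the 7 genes (black diamonds) and genes of 9 pathway lists (coloured points); the dashed line marks equal ratios. Psat1 and Mthfd2 sit at 2.27 and 2.67 in WT, below Tyms at 3.71.

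Other genes of the neighbouring pathways were listed to place the 7 among them. In the folate cycle, the thymidylate synthase gene Tyms was higher in cycling macrophages, with a log2 ratio of 3.71 in WT and 3.57 in Xbp1dIEC. Mthfd1l, which releases formate in mitochondria, had 1.31 and 1.51, and Mthfd1, the cytosolic enzyme that takes it up, 0.75 in WT. In purine synthesis, 4 of 11 genes in WT and 6 of 11 in Xbp1dIEC were higher and none lower. Impdh2, the inosine monophosphate dehydrogenase of dividing cells, had 1.56 in both, and Paics, of the early purine steps, 1.41 in both.

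In the methionine cycle, Ahcy, which clears S-adenosylhomocysteine, had a log2 ratio of 1.81 in WT and 2.11 in Xbp1dIEC, and 2 of 7 and 3 of 7 genes were higher. The methionine synthase reductase gene Mtrr was the 1 lower in Xbp1dIEC, at -1.13 (-1.98 to 0.51), on 1 UMI in the cycling cells. The amino acid synthesis list had 3 of 9 higher in WT and 3 of 7 in Xbp1dIEC, led by the mitochondrial PEP carboxykinase gene Pck2 at 1.85 and 2.18. It had 1 lower in each, the glutamine synthetase gene Glul at -0.62 in WT and the argininosuccinate lyase gene Asl in Xbp1dIEC. Asl was at -0.66 (-1.65 to 0.25), on 8 UMIs in the cycling cells. Of 13 aminoacyl-tRNA synthetase genes 3 were higher in WT and 2 in Xbp1dIEC, with Vars (valine) at 1.19 and 0.88 and Aars (alanine) at 0.98 and 0.78. Transport was measured thinly, with 1 of 4 and 1 of 3 genes higher, in both the arginine carrier Slc7a1 at 0.71 and 0.72. Serine and glycine handling had none higher and 1 of 7 lower in each, the mitochondrial serine carrier family gene Sfxn3 at -0.93 and -0.61.

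The ATF4 list held mostly genes of kinases, transcription factors and the stress response. Pck2, Aars, Vars and Slc7a1, given above as higher in cycling macrophages, stood in other lists. No gene compared in the ATF4 list was as much higher in cycling macrophages as the 2 leading members. None of the list's 15 genes was higher by over 1.5-fold in WT. The mTORC1 inhibitor genes Sesn2 and Ddit4 and the stress-induced Nupr1 were lower, at -1.01, -0.82 and -0.67. In Xbp1dIEC the kinase genes Eif2ak4 and Eif2ak3 were past 1.5-fold upward, at 0.92 (-0.02 to 1.77) and 0.72 (0.04 to 1.35). They had 10 and 20 UMIs in the cycling cells, and in WT both were within 1.5-fold, at -0.395 and 0.546. Ddit4 and Nupr1 were lower in Xbp1dIEC, at -0.80 (-1.84 to 0.15; 7 UMIs in the cycling cells) and -0.68. The list's median was -0.24 in WT and -0.04 in Xbp1dIEC. Atf4 itself was above its resting level but within 1.5-fold, at 0.38 (0.20 to 0.56) in WT and 0.46 (0.19 to 0.73) in Xbp1dIEC. Whether ATF4 has a part in the levels of Psat1 and Mthfd2 was not tested. Myc, a growth factor-induced regulator, was lower in cycling macrophages, at -1.05 in WT and -2.70 in Xbp1dIEC, where it had 2 UMIs. Among the regulators Kdm4c was lower in WT, at -0.65 (-1.395 to 0.081) on 11 UMIs in the cycling cells, and Hif1a higher in Xbp1dIEC, at 0.73. These lists were made with earlier results of these data known, and the counts stand beside the 14.6% and 18.7% of all genes that were higher and the 8.01% and 10.5% that were lower.

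The lists were also read between resting B cells and resting macrophages of WT, where 24.4% of all genes were higher in B cells and 28.6% lower. All 4 amino acid transport genes compared were higher in B cells, the neutral amino acid exchanger Slc1a5 of the serine and glycine list at a log2 ratio of 2.32, and Ass1 at 4.84. Of 13 folate cycle genes 1 was higher and 7 were lower in B cells, among the latter the folate receptor gene Folr2 at -4.64 and the gamma-glutamyl hydrolase gene Ggh at -2.50. In Xbp1dIEC, 4 of 4 transport genes were higher, and of 13 folate cycle genes 5 were higher and 7 lower, beside 24.7% and 26.3% of all genes.

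The genes whose pattern was most like that of a member were named over 23 points of gate, state and library that held 100000 or more UMIs, among 6670 genes with a mean of 10 CPM or more. The points share cells' source and depth, so Pearson's r is a description. For Phgdh these were Rac2 (0.979), Eef1g (0.978) and Cd2 (0.975). For Psat1 they were Trpm7 (0.889), Mcm4 (0.837) and Zdhhc3 (0.837), for Mthfd2 Mpdu1 (0.842) and Metrn (0.818), and for Psph Gm9844 (0.897), Atxn10 (0.883) and Tnfrsf18 (0.865). For Shmt2 they were Sms (0.837), Ywhaq (0.837) and Rps2 (0.799), and for Shmt1 Reep4 (0.727), Lin54 (0.723) and Lsm8 (0.717). For Asns they were 2700029M09Rik, Ube2a and Hnrnpu, these 3 at 0.645 or less. Among the members, Phgdh had r of 0.709 with Psph and 0.706 with Shmt2, -0.105 with Mthfd2 and -0.518 with Psat1, and Psat1 had 0.619 with Shmt1 and 0.37 with Mthfd2.

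Between genotypes, Psat1 and Shmt1 were lower in Xbp1dIEC macrophages. Psat1 stood at 10.2 CPM in Xbp1dIEC and 16.99 in WT, a log2 ratio of -0.69 (-0.89 to -0.49). Shmt1 stood at 0.828 (21 UMIs) and 2.13 CPM (66 UMIs), a ratio of -0.78 (-1.13 to -0.38). These 2 of 6 members compared were lower by over 1.5-fold, beside 2.39% of all genes lower and 0.232% higher. With 10 CPM added in place of 1, both were within 1.5-fold, Psat1 at -0.42 and Shmt1 at -0.16. Mthfd2 had -0.44 (-0.63 to -0.25), Shmt2 -0.35, Psph -0.34 and Phgdh -0.37 (-0.75 to 0.03), all within 1.5-fold. The 7 genes summed to 40.6 CPM in Xbp1dIEC and 59.3 in WT, a ratio of -0.54 (-0.65 to -0.43), and the median over members was -0.41 beside -0.06 over all genes. Among the other lists, 2 of 14 folate cycle genes were lower by over 1.5-fold and none higher, Tyms at -0.79 among them, and no gene of the other 8 lists was past that size.

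The share of cycling macrophages also differed between the libraries, 7.15% in WT and 3.49% in Xbp1dIEC, as did the median depth, so the ratio was taken within resting and within cycling cells. The 6 macrophage markers summed to 10400 CPM in WT and 9159 in Xbp1dIEC macrophages, Gata6 and Timd4 to 285.9 and 286.3 CPM, and the part of depth and of these levels was not tested. Among resting macrophages Psat1 stood at 6.92 CPM in Xbp1dIEC and 11.4 in WT, a ratio of -0.65 (-0.92 to -0.39). It was the only one of 4 members lower by over 1.5-fold there, beside 1.19% of all genes, while Mthfd2 had -0.17 and Shmt2 -0.14. Among cells with no cell cycle UMI in their full counts (1794 WT and 2420 Xbp1dIEC cells), a setting added after the data were seen, Psat1 was 5.47 against 9.15 CPM, again a ratio of -0.65 (-0.99 to -0.31; 1.14% of genes as much lower). Among cycling macrophages Psat1 was within 1.5-fold, at -0.22 (-0.65 to 0.20), as was Mthfd2 at -0.20. There Shmt2 at -0.77 (16 and 71 UMIs) and Psph at -0.67 (10 and 42 UMIs) were past it, beside 4.6% of all genes. In macrophages with Gata6 or Timd4, Psat1 was 9.88 against 15.0 CPM, a ratio of -0.56, and in those without 10.9 against 23.2 CPM, a ratio of -1.03 (2.52% and 4.24% of genes lower). Psat1 was thus lower in the Xbp1dIEC library in resting cells and in macrophages with and without a UMI of Gata6 or Timd4, within 1.5-fold in those with it. With 1 pool per genotype, its difference cannot be told apart from a difference between pools.

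In B-1 cells Phgdh stood at 90.8 CPM in Xbp1dIEC and 126.8 in WT, a log2 ratio of -0.48 (-0.65 to -0.30), and none of 4 members was past 1.5-fold, beside 4.57% of genes higher and 2.92% lower. With cells thinned before summing the ratio was -0.22 (-0.57 to 0.13). Among resting B-1 cells it was 86.8 against 124.7 CPM, a ratio of -0.52. The makeup of the gate differed between libraries: the Ahnak2 cells were 111 of 432 in WT and 110 of 814 in Xbp1dIEC, and the Fbxw13 or Prkar2b cells 70 of 432 and 322 of 814. Within the Ahnak2 cells the ratio was -0.20 (-0.54 to 0.14), and within the Fbxw13 or Prkar2b cells -0.30 (-0.73 to 0.15). Both intervals hold the ratio of the whole gate. B-1 cells with both kinds of marker (41 in WT, 113 in Xbp1dIEC) or neither (210 and 269) were not compared. The states had been chosen with Phgdh among their markers, and the part of makeup was not tested. In the B-1 gate 2 of 8 folate cycle genes were higher in Xbp1dIEC, the folate carrier gene Slc19a1 at 1.01 and Tyms at 0.78, and the large neutral amino acid carrier gene Slc7a5 had 1.05, on 10 to 15 WT UMIs each, while Nupr1 was lower at -0.67 on 34 and 26 UMIs. Cycling cells were 4 of the 432 WT B-1 cells and 17 of the 814 Xbp1dIEC ones.

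In B-2 cells Phgdh had a ratio of -0.14 and none of 3 members compared was past 1.5-fold, beside 1.85% of genes higher and 3.53% lower. Psat1 there was 9.24 CPM in Xbp1dIEC (12 UMIs) and 2.27 in WT (4 UMIs), too few to be counted. In T cells Phgdh was equal, at 58.9 and 58.8 CPM, a ratio of 0.00. Mthfd2 was higher in the Xbp1dIEC library, at 48.0 (53 UMIs) against 30.6 CPM (37 UMIs), a ratio of 0.63 (0.02 to 1.26), and was 1 of 4 members past 1.5-fold, beside 3.41% of all genes higher and 2.94% lower.

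**Figure D4:**
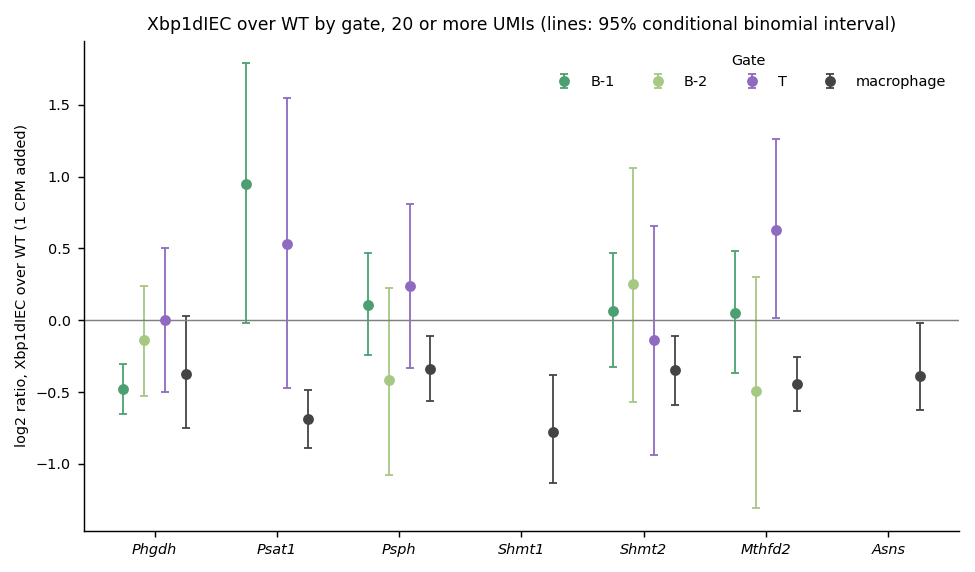
Log2 ratio (1 CPM added) of the Xbp1dIEC over the WT library for each gene in B-1, B-2, T and macrophage gates, with exact conditional 95% intervals that cover counting error only; ratios on under 20 UMIs in all are not drawn. In macrophages Psat1 lies at -0.69 and Shmt1 at -0.78, and in T cells Mthfd2 lies at 0.63.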

How the data were processed

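Per the labels, 8700 cells of each pool were encapsulated for Chromium Single Cell 3′ v2 libraries, sequenced by Illumina. Tools listed in the submitters' processing notes are Seurat 2.3.0 and Cell Ranger 2.2.0, with mm10 as the build; which step each did is not given in the sources used here. The authors deposited raw counts, whole UMI numbers per gene and barcode with no normalization, and these were used as deposited; no per-sample column was left unused (0). The lowest barcode held 2597 UMIs in WT and 2485 in Xbp1dIEC, with median depths of 8323 and 7279 UMIs and 2144 and 1919 genes.

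Cells needed 500 UMIs, 200 genes and under 10% mitochondrial counts, which left out 6 WT and 20 Xbp1dIEC cells. Scrublet, in scanpy 1.11.5 (Python 3.11.15) with an expected rate of 5%, called 140 (2.26%) and 113 (1.81%) doublets, which were removed. Lineages were gated on the full counts with 6 markers each, so deep cells cross the threshold of a second lineage more easily. Itgam stood on 2 rows of the gene list and was left out, which left 7 of 8 B-1 markers. Cells were thinned to 2000 UMIs for shares of cells and for cell cycle state, and no cell was shallower. UMIs were summed per gate and library, scaled to CPM, and compared as log2 ratios with 1 CPM added. A gene was compared where the sums held 50 or more UMIs, and called higher or lower past 1.5-fold. Intervals at 95% are exact Poisson for levels, Clopper-Pearson for shares and conditional binomial for ratios (scipy 1.17.1, numpy 2.4.6, pandas 2.3.3). They and the floor of 3 counts cover counting error only, since 1 library per genotype allows no p-value. The code was tested on simulated data.

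The members and gene lists were chosen with earlier results of these data known. Text names all 7 members, up to 4 genes past 1.5-fold of a pathway list per comparison, by size, and the 3 genes of highest likeness to each member, apart from a few results that are not reported here. Of 14 symbols listed for tRNA synthetases, 13 matched. Alternatives covered the CPM added, the minimum count, the mitochondrial limit, thinning, gates and cycling thresholds. UMIs of 3′ ends are not scaled by gene length, so levels are compared between cells and not between genes.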

Additional observations from a re-analysis of the deposited data

Results flagged for a closer look

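Psat1 had opposite signs of the Xbp1dIEC over WT log2 ratio in B-2 cells, at 1.649 (12 against 4 UMIs), and in macrophages, at -0.688; the difference between these ratios was not tested. With B-1 and B-2 cells told apart by the larger of their marker sums, the B-2 value was 0.194. Mthfd2 had opposite signs in T cells, at 0.632 (53 against 37 UMIs), and in macrophages, at -0.443, and this difference was not tested either. With 1 library per genotype no group has the spread over samples that a test would need.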

How the results depend on the processing

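No paired analysis was possible because each genotype has 1 library and the labels give no replicate numbers. Of 200 recomputed sums and shares, 193 stayed within their main counting interval, as did 850 of 904 ratios of single members. A setting that changes only 1 gate or state leaves the other results as they were, and these are counted too. The counts are therefore no measure of stability. With 10 CPM added, the summed cycling over resting ratio in macrophages was 1.824 in WT and 1.815 in Xbp1dIEC, and Psat1 for genotype in macrophages was -0.42, within 1.5-fold. With cells thinned before summing, the sum was 0.527 for genotype in T cells, 0.551 for B-1 over B-2 in Xbp1dIEC and 0.484 for cycling over resting B cells in WT. Without Phgdh, a setting added after seeing the data, the sum turned to 0.137 for genotype in B-1 cells (from -0.237) and to -0.074 for B-1 over B-2 in WT (from 0.366), so Phgdh carries both. Member ratios turned on few UMIs: Asns in cycling WT macrophages to -0.354 among cells with Gata6 or Timd4, and, thinned, Phgdh to -0.092 and Mthfd2 to -4.298 in cycling WT B cells and Phgdh to -0.744 in cycling Xbp1dIEC macrophages. The cycling cells held 2 UMIs of Phgdh in the WT B cells and 0 UMIs of the gene in the other cases. With no minimum of UMIs, the genes higher and lower by 1.5-fold were 6.46% and 4.7% for genotype in B-1 cells, 13.4% and 16.9% in B-2 cells and 18.3% and 16.8% in T cells. They were 12.5% and 17.6% for B-1 over B-2 in WT, 14% and 15.2% in Xbp1dIEC, 21.5% and 37.7% for cycling over resting B cells in WT, 18.8% and 26.6% in Xbp1dIEC, and 18.8% and 10.7% for cycling over resting macrophages in Xbp1dIEC. The causes were not tested. Depth limits Asns and Shmt1 in every gate, Psat1 in B cells and all members in cycling lymphocytes.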
